A study of Mus musculus with 84 samples.

Results

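The Na,K-ATPase beta subunit genes Atp1b1, Atp1b2 and Atp1b3 were followed through all groups of a mouse astrocyte RNA-seq series. The genes were taken by name. They are 3 of the 48526 genes listed for the experimental autoimmune encephalomyelitis (EAE) libraries and 3 of the 25773 genes listed for the naive subtype libraries, and all 3 passed the filter on low counts in both. Atp1b2 encodes ACSA-2, the surface antigen by which the astrocytes were sorted. Every isolated library therefore came from cells gated on the protein of one of the genes described here, and what the gate did to the transcript level was not tested.

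The EAE set held 66 libraries of C57BL/6J mice in 12 groups. They were unimmunized controls (C), EAE score 1 (E1, limp tail), EAE score 4 (E4, complete hind leg paralysis) and chronic EAE (Ech), each in hindbrain GLASTneg, hindbrain GLASTpos and spinal cord GLASTneg cells. By the study's methods, EAE was induced in 10-week-old female mice with a MOG peptide in complete Freund's adjuvant and pertussis toxin, agents that the unimmunized controls did not carry. Group sizes were 5, 6, 6 and 6 libraries for C, E1, E4 and Ech in hindbrain GLASTneg, 5, 6, 6 and 4 in hindbrain GLASTpos, and 5, 5, 6 and 6 in spinal cord. The subtype set held 15 libraries from untreated FVB/N mice, whose age is not given in the sources used here, and 3 libraries of cultured primary neonatal C57BL/6J astrocytes. Its 6 groups of 3 libraries were labelled forebrain (FB) GLASTneg, FB GLASTpos, hindbrain (HB) GLASTneg, HB GLASTpos, spinal cord (SC) GLASTneg and cultured. Isolated cells were negative for CD11B and CD45 and positive for ACSA-2, and a GLAST antibody split them into GLASTpos and GLASTneg. A library could hold RNA of more than 1 mouse, so it may be a pool rather than an animal. The labels do not say which libraries came from separate animals, and p-values measure the spread between libraries. The first number in the brackets of the titles recurs across the control populations, 5 and 13 in all of them and 4, 8 and 9 in pairs. It recurs likewise within the EAE stages, in all populations for 49 and 52 at score 1, 30 at score 4 and 29 and 31 in chronic EAE. Some titles hold a second such number, and the labels do not say what either marks.

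The Na,K-ATPase carries sodium out of the cell and potassium into it, at the cost of ATP. Its alpha subunit holds the catalytic and ion-binding sites, and its beta subunit is a glycoprotein that helps alpha fold and reach the plasma membrane and tunes the affinity for potassium. The beta2 protein made from Atp1b2 is also known as the adhesion molecule on glia and is abundant in astrocytes. The beta1 protein made from Atp1b1 is abundant in neurons among other cells, and the beta3 protein made from Atp1b3 is found in many tissues. In astrocytes the pump clears potassium after neuronal firing and keeps up the sodium gradient that drives glutamate and GABA uptake.

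The 3 genes lie on 3 chromosomes of the mouse GRCm38 build, all on the minus strand. Atp1b1 is at chr1:164437109-164458355 with 6 exons in its main transcript and a coding sequence of 304 codons. Atp1b2 is at chr11:69599736-69605942 with 7 exons and 290 codons, and Atp1b3 at chr9:96332655-96364442 with 7 exons and 278 codons. The coding sequences are shown here to describe how alike the members are. The reads came from 3′ ends, so coding identity does not set how far reads of 1 member could be counted for another. Identity over aligned bases was 57.02% for Atp1b1 and Atp1b2, 55.35% for Atp1b2 and Atp1b3, and 49.75% for Atp1b1 and Atp1b3. The longest run of identical aligned bases was 19, between Atp1b1 and Atp1b2, and no stretch of 50 bases, the length of a read, occurred in transcripts of more than 1 member. The most alike window of 60 coding bases is printed from GENCODE M21, with capitals at the 35 positions where all 3 genes hold the same base. In Atp1b1 it spans coding bases 74 to 133, in Atp1b2 bases 89 to 148 and in Atp1b3 bases 86 to 145.
Atp1b1: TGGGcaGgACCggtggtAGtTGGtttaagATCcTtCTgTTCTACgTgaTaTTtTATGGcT
Atp1b2: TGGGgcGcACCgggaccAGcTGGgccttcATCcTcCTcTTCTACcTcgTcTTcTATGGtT
Atp1b3: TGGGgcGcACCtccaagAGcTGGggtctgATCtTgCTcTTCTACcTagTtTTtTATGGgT
Even in this window the capitals break every few bases. That single reads can tell the members apart rests on the 50-base stretches of whole transcripts, not on this window. Other genes came closer. The last exon of Atp1b1 overlaps the end of Nme7 on the opposite strand by 617 bases, and 478 of the 3028 different 50-base stretches of Atp1b1 transcripts also occur there. Whether reads were counted by strand is not given in the sources used here. Nme7 itself had group means of 0.374 to 8.08 CPM in the EAE libraries. Atp1b3 shares 227 of its 2337 stretches with the pseudogene Gm1848, which had at most 6.66 CPM in any EAE library. Atp1b2 shares none of 4240.

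Reads were 3′ tags, so levels are given in CPM (counts scaled to a fixed library total, with TMM scaling) and compared between samples, not between genes. EAE libraries held 1313682 to 4895220 counts in genes, isolated subtype libraries 416768 to 1269316 and cultured libraries 2183464 to 8188074. Atp1b2 had 183 to 29707 reads in the EAE libraries, Atp1b3 97 to 4463 and Atp1b1 1 to 2472, with a single Atp1b1 library at or under 3 reads. Atp1b1 is thus the member with the largest counting error in the EAE libraries. In the subtype libraries Atp1b3 had a median of 77.5 reads and a lowest value of 42, and Atp1b1 a median of 90 and a lowest value of 14. A gene was said to have passed when its adjusted p from edgeR's quasi-likelihood test was under 0.05, taken over all 23324 genes tested in the EAE set, 14957 in the isolated subtype set or 17126 with the cultured libraries.

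Some libraries stood apart or went against their labels. Spinal cord score 1 replicate 2 had an astrocyte marker sum of 17834 CPM over 10 genes, against 4189 to 9067 CPM in the other 4 libraries of its group. Spinal cord score 1 replicate 1 is titled as spinal cord but its region field says hindbrain. The title was used, and Hoxc8, a gene of posterior position, was at 12.2 CPM or more in all 5 libraries of the group and at most 5.13 CPM in any hindbrain library of the EAE set. Among spinal cord score 4 libraries, replicate 2 had a myeloid marker sum of 4699 CPM over 12 genes, against 130 to 281 CPM in the other 5. In the subtype set, position genes went against the labels of 12 of 15 isolated libraries, which is described with those libraries.

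The spinal cord cells were also checked against astrocyte markers. In controls the 10 astrocyte markers summed to 11163 to 16626 CPM, at score 4 to 2639 to 4150 CPM and in chronic EAE to 3179 to 6051 CPM, and none of the 10 was at 0 in any library. At score 4, 8 of the 10 passed as lower and 1, Gfap, as higher. In chronic EAE 8 passed as lower and 1, S100b, as higher. S100b alone averaged 3989 CPM in chronic spinal cord and so made up most of the sum there. The sum of 10 oligodendrocyte markers was 14358 to 41875 CPM in spinal cord controls, 30361 to 77684 CPM at score 4 and 25393 to 41609 CPM in chronic EAE. At score 1 it was 26912 to 62071 CPM, so every EAE library labelled spinal cord astrocytes held more oligodendrocyte than astrocyte marker counts, and the control medians were 18344 and 14744 CPM. In bulk RNA, fewer astrocytes in a sort and less of a transcript per astrocyte cannot be told apart, which holds for each spinal cord value that follows.

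The ranges of Atp1b2 overlapped in the 3 control populations. The 5 hindbrain GLASTneg controls held 6987, 8566, 8576, 5703 and 6113 CPM, the 5 hindbrain GLASTpos controls 6013, 6330, 6744, 6523 and 6281 CPM, and the 5 spinal cord controls 6472, 7001, 5175, 6634 and 7706 CPM. No population stood apart. Spinal cord differed from hindbrain GLASTneg by a log2 fold change of -0.12 ± 0.30 (SE, edgeR adjusted p = 0.956) and from hindbrain GLASTpos by 0.05 ± 0.30 (adjusted p = 1). Hindbrain GLASTpos differed from GLASTneg by -0.17 ± 0.30 (adjusted p = 0.835). In the same comparisons, 6.68%, 19.1% and 14.7% of all genes tested passed.

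In the spinal cord, Atp1b2 fell at every stage of EAE. At score 1 the 5 libraries held 2811, 9215, 1332, 1779 and 2323 CPM: 4 lay below all controls and replicate 2 above them all. At score 4 the 6 libraries ran from 103 CPM over a median of 361 CPM to 599 CPM, and in chronic EAE from 228 over 472 to 609 CPM. The highest of these 12 libraries, at 609 CPM, lay far below the lowest spinal cord control, at 5175 CPM. The fall was 18.4-fold at score 4 (log2 fold change -4.20 ± 0.32, edgeR adjusted p = 3.92e-16) and 14.4-fold in chronic EAE (-3.85 ± 0.32, adjusted p = 5.86e-15). At score 1 it was 1.89-fold (-0.92 ± 0.30, adjusted p = 0.0409). The shares of all genes that passed in these comparisons were 23% at score 4, 21.1% in chronic EAE and 10.3% at score 1.
The late falls passed whichever library was left out, with log2 fold changes from -4.38 to -3.99 at score 4 and from -3.97 to -3.72 in chronic EAE. The score 1 value rested on single libraries. Without replicate 2 of score 1 it was -1.68 (adjusted p = 3.41e-06), and it did not pass without any one of 8 other libraries, the adjusted p over all omissions ranging from 3.41e-06 to 0.187.

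From score 4 to the chronic stage, spinal cord Atp1b2 differed by 0.35 ± 0.28 (log2, adjusted p = 0.597), beside 7.37% of all genes passing. The ranges of both stages overlapped, and neither reached the controls.

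**Figure D1:**
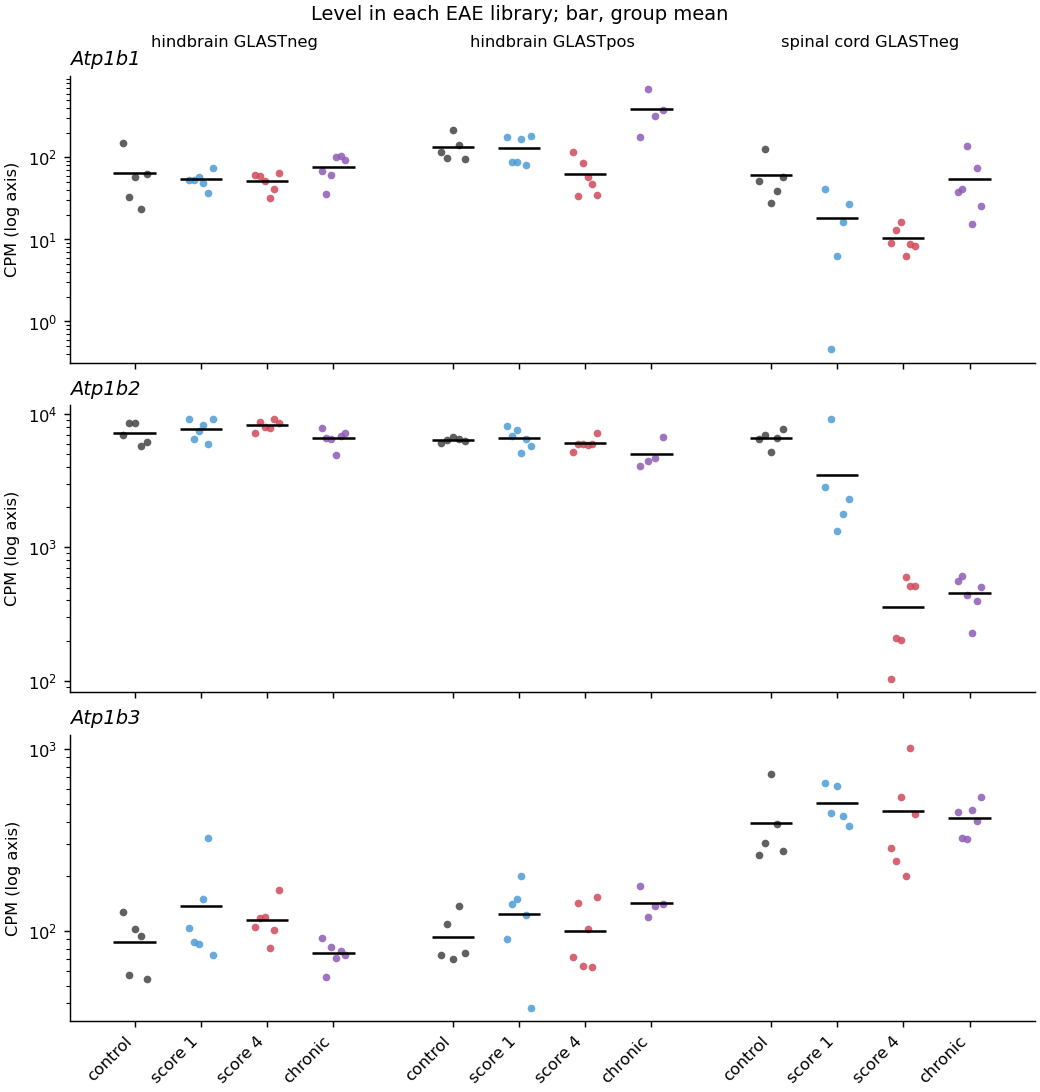
Level of Atp1b1, Atp1b2 and Atp1b3 in each of 66 EAE libraries, in CPM on a log axis, by population and stage; points are libraries and bars group means. Group means of Atp1b2 are 4984 CPM or more everywhere but in spinal cord EAE, Atp1b3 is highest in the 4 spinal cord groups, and Atp1b1 is highest in chronic hindbrain GLASTpos cells.

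In both hindbrain populations Atp1b2 did not pass at any stage. Hindbrain GLASTneg libraries held 5936 to 9209 CPM at score 1, 7153 to 9241 CPM at score 4 and 4921 to 7833 CPM in chronic EAE, all 3 ranges overlapping the controls. The log2 fold changes were 0.11 ± 0.29, 0.20 ± 0.29 and -0.12 ± 0.29 (adjusted p = 1 for each). Hindbrain GLASTpos libraries held 5072 to 8091 CPM at score 1, 5219 to 7211 CPM at score 4, and 4073, 4413, 4706 and 6743 CPM in chronic EAE. In the chronic group 3 of 4 libraries lay below every control, but the change did not pass (-0.36 ± 0.32, adjusted p = 0.677). All genes tested passed at 0.6%, 0.69% and 0.0514% in hindbrain GLASTneg and at 1.52%, 2.76% and 2.5% in hindbrain GLASTpos, for score 1, score 4 and chronic EAE. From score 4 to chronic, 0.141% of genes passed in hindbrain GLASTneg, none of the 3 members among them.

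The stage changes of spinal cord and hindbrain GLASTneg cells were set against each other in an interaction test. The test took all libraries as independent. The first bracket number of the titles, which recurs between these populations within a stage, was entered as a block for the control pairs only. For Atp1b2 the spinal cord change was lower than the hindbrain change by 4.41 ± 0.43 on the log2 scale at score 4 (log2 difference -4.41, adjusted p = 9.46e-12) and by 3.73 ± 0.42 in chronic EAE (log2 difference -3.73, adjusted p = 9.44e-10). At score 1 the difference was -1.03 ± 0.42 and did not pass (adjusted p = 0.376). Without spinal cord score 1 replicate 2 it was -1.82 and passed (edgeR adjusted p = 5.86e-04), the only 1 of 21 omissions that changed the call. The interaction passed for 0.424%, 8.36% and 7.79% of all genes at the 3 stages. Between hindbrain GLASTpos and GLASTneg cells the change of Atp1b2 differed by -0.05 to -0.28 and did not pass at any stage. In that comparison 0.00857% of genes passed at score 1, 0% at score 4 and 0.0257% in chronic EAE. At score 4 no gene passed with edgeR although 1174 had an unadjusted p under 0.05, and 16 passed with DESeq2.

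**Figure D2:**
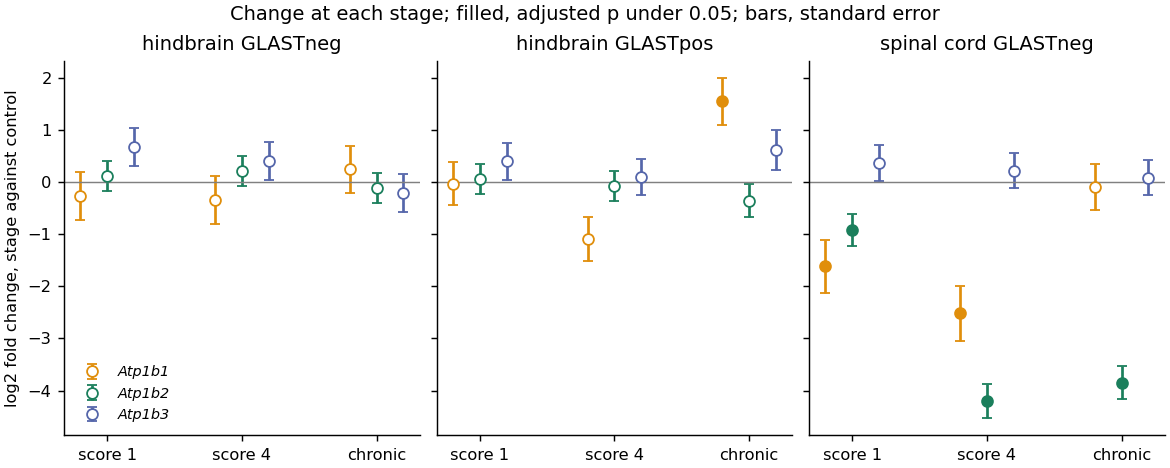
Log2 fold change of each stage against unimmunized controls for the 3 genes in the 3 populations, with standard error bars; filled points have an adjusted p under 0.05. The 3 filled Atp1b2 points are all in spinal cord, at -0.92, -4.20 and -3.85, and no Atp1b3 point is filled.

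Across the 12 groups, mean Atp1b2 descended from hindbrain GLASTneg score 4 (8284 ± 741 CPM, SD, n = 6) through hindbrain GLASTneg score 1 (7750 ± 1376), hindbrain GLASTneg control (7189 ± 1344), hindbrain GLASTpos score 1 (6648 ± 1122), chronic hindbrain GLASTneg (6628 ± 970), spinal cord control (6598 ± 926), hindbrain GLASTpos control (6378 ± 274) and hindbrain GLASTpos score 4 (6043 ± 645) to chronic hindbrain GLASTpos (4984 ± 1201). Below them lay spinal cord at score 1 (3492 ± 3247), in chronic EAE (456 ± 137) and at score 4 (357 ± 209). Neighbours in this order overlapped in every case but spinal cord score 1 and chronic spinal cord. No gap between neighbours exceeded the larger of their 2 SDs.

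The fall of Atp1b2 in the spinal cord went along with those of most of the listed astrocyte markers. Mean Gja1, the main astrocyte connexin, was 1033 CPM in control, 33.2 CPM at score 4 and 25.2 CPM in chronic spinal cord. Slc1a2, the main glutamate transporter, was at 3760, 336 and 282 CPM, and Aqp4, the water channel of astrocyte endfeet, at 955, 83.8 and 59.5 CPM. Sox9, a transcription factor of astrocytes, was at 422, 29.4 and 22.8 CPM. S100b and Gfap did not follow, at 2141, 2208 and 3989 CPM and at 48.8, 105 and 45.7 CPM. The score 1 library that kept a high Atp1b2 level, replicate 2, was also the one with the highest astrocyte marker sum, and its 9215 CPM and 17834 CPM both lay above all spinal cord controls. Its oligodendrocyte marker sum of 26912 CPM was the lowest of its group, whose other libraries held 33657 to 62071 CPM. The part of cell composition in the Atp1b2 values was not tested.

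**Figure D3:**
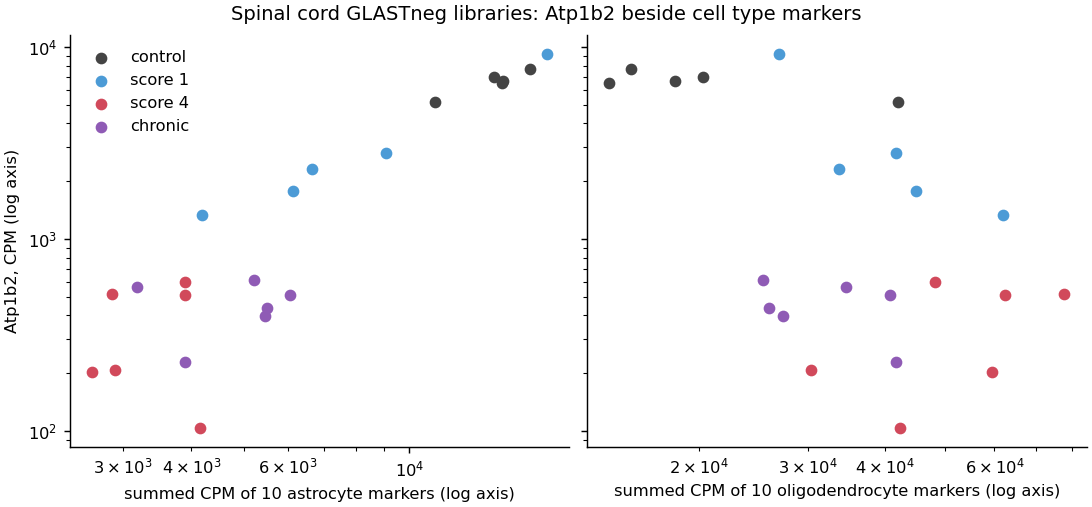
Atp1b2 in each spinal cord GLASTneg library (CPM, log axis) against the summed CPM of 10 astrocyte markers (left) and 10 oligodendrocyte markers (right), colored by stage. The control libraries lie at 5175 to 7706 CPM of Atp1b2 and 11163 to 16626 CPM of astrocyte markers, joined by 1 score 1 library, and the score 4 and chronic libraries lie under 610 CPM of Atp1b2.

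The S number in the titles of the EAE libraries, whose meaning the labels do not give, was 57 or more in all 5 spinal cord controls but in 4 of 5 score 1, 1 of 6 score 4 and 4 of 6 chronic libraries. Among spinal cord libraries with numbers of 57 or more, Atp1b2 still passed at score 4 (log2 fold change -5.01, a single score 4 library, assumed to vary like the other groups) and in chronic EAE (-3.64).

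Atp1b1 behaved otherwise than Atp1b2. It fell in the spinal cord at score 1 and score 4, stood near control values again in chronic EAE, and rose in hindbrain GLASTpos cells in chronic EAE. The 5 spinal cord controls held 52.1, 128, 27.5, 38.6 and 57.1 CPM. At score 1 the libraries held 41.1, 0.456, 6.32, 16.4 and 27.0 CPM, the second of them a single read, and only replicate 1 lay within the control range. The 6 score 4 libraries ran from 6.22 over 8.95 to 16.3 CPM, all below every control. The 6 chronic libraries ran from 15.4 over 39.3 to 138 CPM, and their range covered that of the controls.
The log2 fold change of spinal cord Atp1b1 was -1.62 ± 0.51 at score 1 (edgeR adjusted p = 0.0288), -2.52 ± 0.53 at score 4 (adjusted p = 1.82e-04) and -0.10 ± 0.44 in chronic EAE (adjusted p = 1). The step from score 4 to chronic was a 5.36-fold rise (2.42 ± 0.51, adjusted p = 9.75e-04). The score 4 change differed from that of hindbrain GLASTneg cells by -2.18 ± 0.71 (adjusted p = 0.0426), a call that 15 of 22 omissions of 1 library ended.
The score 1 call was lost without control replicate 2 (-1.13) or without score 1 replicate 2 (-1.36), 3 (-1.41) or 4 (-1.57). In spinal cord libraries with S numbers of 57 or more, with 1 score 4 library, neither the score 4 change (-1.87) nor the step to chronic (1.90) passed. Summed neuron markers, 10 genes, gave 306 to 627 CPM in spinal cord controls and 124 to 455 CPM at score 1. They gave 85.7 to 155 CPM at score 4 and 140 to 492 CPM in chronic EAE. Their medians were 549, 265, 136 and 239 CPM in this order, so the chronic median stayed below that of the controls. Oligodendrocyte precursor markers, 5 genes, gave 253 to 786 CPM in control, 535 to 1433 CPM at score 4 and 992 to 2968 CPM in chronic EAE. The part of either list in the Atp1b1 values was not tested.

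In hindbrain GLASTpos cells the 5 controls held 116, 98.5, 215, 142 and 96.5 CPM of Atp1b1. The 4 chronic libraries held 178, 682, 317 and 384 CPM, 3 of them above every control and replicate 1 within the control range. The rise was 2.92-fold (log2 fold change 1.55 ± 0.45, adjusted p = 0.0457). It did not pass without chronic replicate 2 (1.14) or 4 (1.55), nor without control replicate 1 (1.51), 2 (1.46), 4 (1.57) or 5 (1.45).
At score 4 the 6 hindbrain GLASTpos libraries held 34.3 to 116 CPM around a median of 53.0 CPM, lower than control by 1.09 ± 0.42 on the log2 scale, which did not pass (log2 fold change -1.09, adjusted p = 0.19). Score 1 libraries held 81.5 to 181 CPM and did not pass (-0.03 ± 0.41, adjusted p = 1). Between score 4 and chronic EAE the groups did not overlap, and the 6.21-fold rise passed (2.63 ± 0.44, adjusted p = 2.61e-05), beside 6.56% of all genes. In hindbrain GLASTneg cells no stage passed, with group means of 65.1 ± 49.4 CPM in control, 54.0 ± 11.9 at score 1, 51.9 ± 12.8 at score 4 and 77.2 ± 26.5 in chronic EAE. The chronic change of hindbrain GLASTpos cells was not shown to differ from that of GLASTneg cells (difference 1.30 ± 0.63, adjusted p = 0.627).
Neuron markers were also highest in chronic hindbrain GLASTpos libraries, with sums of 605, 1934, 780 and 1129 CPM against 132 to 462 CPM in the controls and 99.0 to 227 CPM at score 4. Replicate 2 had the highest Atp1b1 level and the highest neuron marker sum, and replicate 1 the lowest of both. The part of neuronal RNA in the Atp1b1 rise was not tested.

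Among control populations Atp1b1 averaged 134 ± 49.0 CPM (SD, n = 5) in hindbrain GLASTpos, 65.1 ± 49.4 in hindbrain GLASTneg and 60.7 ± 39.5 in spinal cord cells. Hindbrain GLASTpos exceeded GLASTneg by 1.04 ± 0.46 on the log2 scale (adjusted p = 0.13), and spinal cord lay at -1.14 ± 0.45 against hindbrain GLASTpos (adjusted p = 0.0699), so neither passed. Each difference passed when 1 library was left out, the first at 1.64 without hindbrain GLASTneg control replicate 1 and the second at -1.62 without spinal cord control replicate 2. These were the libraries with the highest Atp1b1 level of their groups, at 148 and 128 CPM. Both differences also passed in a limma-voom fit with the first bracket number as a random block (1.32 and -1.31), which differs from the edgeR fit in more than the block. S numbers were 32 to 51 in hindbrain GLASTneg controls and 68 to 95 in hindbrain GLASTpos controls, so gate and S number cannot be told apart in any value of this pair, the ratio and the partner genes included. With the S number as a covariate the Atp1b1 difference of the pair was 0.026 in place of 1.04. Over all 12 groups chronic hindbrain GLASTpos cells stood highest (390 ± 212 CPM, n = 4) and spinal cord score 4 lowest (10.3 ± 3.68 CPM, n = 6). All neighbours in the order of means overlapped.

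Atp1b3 was higher in spinal cord than in hindbrain controls and passed at no stage of EAE. The 5 spinal cord controls held 263, 304, 730, 390 and 276 CPM. Hindbrain GLASTneg controls held 127, 57.05, 103, 94.2 and 54.5 CPM and hindbrain GLASTpos controls 73.6, 109, 70.2, 138 and 75.3 CPM, all below every spinal cord control. The difference was 4.502-fold against hindbrain GLASTneg (log2 fold change 2.17 ± 0.38, adjusted p = 3.30e-05) and 4.21-fold against hindbrain GLASTpos (2.08 ± 0.37, adjusted p = 1.29e-05), and both passed whichever library was left out. All hindbrain GLASTneg libraries had S numbers under 57 and all spinal cord controls 60 or more, so region and S number cannot be told apart in that pair. Hindbrain GLASTpos controls had numbers of 68 to 95, within a range that overlaps the spinal cord controls.
In EAE the spinal cord means were 505 ± 124 CPM at score 1 (n = 5), 456 ± 304 at score 4 (n = 6) and 418 ± 85.6 in chronic EAE (n = 6), against 392 ± 195 in control. The log2 fold changes were 0.36 ± 0.35, 0.22 ± 0.33 and 0.08 ± 0.33 (adjusted p = 0.616, 0.745 and 0.982). Over all 9 stage comparisons they ran from -0.21 to 0.67, and none passed. The smallest unadjusted p among them was 0.0685, for hindbrain GLASTneg at score 1, whose 6 libraries ran from 73.7 to 325 CPM. The 4 spinal cord groups held the 4 highest means of Atp1b3. The lowest of them, the control, did not overlap the next group, chronic hindbrain GLASTpos (143 ± 23.6 CPM), and all other neighbours overlapped.
Oligodendrocyte markers followed the same division by region. Their sum was 1470 to 5103 CPM in hindbrain GLASTneg controls and 1170 to 1336 CPM in hindbrain GLASTpos controls, against 14358 CPM or more in the spinal cord. Spinal cord control replicate 3, with 730 CPM of Atp1b3, had the highest oligodendrocyte sum of its group, 41875 CPM. Spinal cord score 4 replicate 5, with 1015 CPM of Atp1b3, had the highest of its group, 77684 CPM. Hindbrain GLASTneg score 1 replicate 5, with 325 CPM, had the highest sum of its group, 12328 CPM. Over the stages the 2 went apart. In spinal cord the median oligodendrocyte sum was 18344 CPM in control, 41560 CPM at score 1, 53775 CPM at score 4 and 31016 CPM in chronic EAE. Atp1b3 passed at none of these stages. The part of oligodendrocyte RNA in Atp1b3 was not tested.

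The balance of Atp1b2 and Atp1b1 was followed as the log2 ratio of their counts within a library, which no scaling between libraries can alter. In control the mean ratio was 7.07 ± 1.02 (SD, n = 5) in hindbrain GLASTneg, 6.96 ± 0.71 in spinal cord and 5.64 ± 0.43 in hindbrain GLASTpos cells. The ratio was lower in hindbrain GLASTpos than in GLASTneg cells by 1.42 (log2 difference -1.42, exact permutation test, two-sided, adjusted p = 0.0476 over 3 pairs) and higher in spinal cord than in hindbrain GLASTpos cells by 1.31 (exact permutation test, adjusted p = 0.0476). Each of these calls was lost in 9 of 10 omissions of 1 library, and the S numbers of the first pair did not overlap.
In chronic spinal cord the ratio averaged 3.34 ± 1.05 (n = 6), and its highest library, 4.30, lay below the lowest control, 5.77. The difference of -3.61 passed (exact permutation test, adjusted p = 0.039 over 9 stage comparisons). Its unadjusted p of 0.0043 was the smallest that 6 against 5 libraries can give (exact permutation test). The call was lost in 10 of 11 omissions. Fewer libraries raise that smallest p, so these losses do not measure how stable the difference was. Over the omissions the difference ran from -3.91 to -3.28. At score 4 the ratio was 4.92 ± 1.35, a difference of -2.04 that missed the threshold (exact permutation test, adjusted p = 0.0519). In chronic hindbrain GLASTpos cells it was 3.81 ± 0.79 (n = 4), with no overlap with the controls and a difference of -1.83 (exact permutation test, adjusted p = 0.0519). There too the unadjusted p, 0.0159, was the smallest that 4 against 5 libraries can give (exact permutation test). At score 4 in the same cells the ratio was higher, at 6.73 ± 0.82 (difference 1.09, exact permutation test, adjusted p = 0.0779). At score 1 in spinal cord the ratio was 6.10 to 14.3, the highest value coming from the library with 1 Atp1b1 read, and in hindbrain GLASTneg cells no stage passed (exact permutation test, adjusted p = 0.522 to 0.844).

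**Figure D4:**
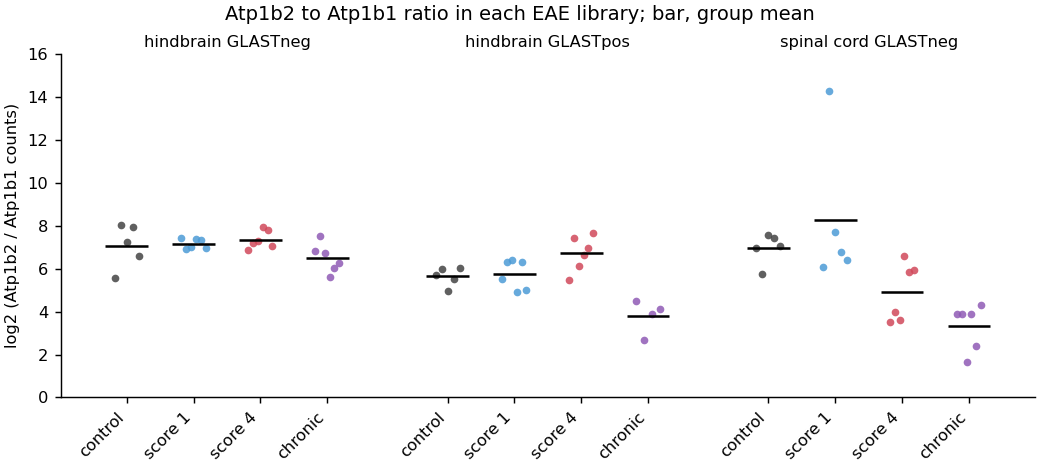
Log2 ratio of Atp1b2 to Atp1b1 counts within each EAE library, by population and stage; points are libraries and bars group means. Chronic spinal cord (mean 3.34) and chronic hindbrain GLASTpos libraries (mean 3.81) lie wholly below their controls (means 6.96 and 5.64).

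Other genes of the pump were read from fixed lists. The FXYD proteins are small membrane proteins that adjust pump kinetics, and 6 of 7 genes were tested. In spinal cord Fxyd1, phospholemman, fell at the 3 stages (-1.10, -2.15 and -2.32), from 33.5 ± 9.61 CPM in control to 6.78 ± 2.13 in chronic EAE. Fxyd7 rose from 1.65 ± 1.12 CPM in control to 10.5 ± 10.2 at score 4 (2.60 ± 0.66) and 11.6 ± 4.54 in chronic EAE (2.83 ± 0.63). Fxyd6 rose in chronic EAE only among the 3 stage tests, from 15.3 ± 11.0 to 108 ± 52.2 CPM (2.88 ± 0.44, adjusted p = 7.96e-08). The sum of 5 oligodendrocyte precursor markers was 253 to 786 CPM in spinal cord controls and 992 to 2968 CPM in chronic EAE, and its part in Fxyd6 was not tested. Fxyd5 was at 0 in all spinal cord controls and at 0 to 70.1 CPM at score 4, so no fold is given. Among the 6 tested, 1 passed at score 1, 3 at score 4 and 3 in chronic EAE, beside 10.3%, 23% and 21.1% of all genes. Of the 4 Nkain genes, whose products bind the beta subunit, Nkain4 fell from 474 ± 118 CPM in spinal cord control to 11.95 ± 2.12 at score 4 (-5.31 ± 0.36, adjusted p = 3.90e-18) and 29.7 ± 7.40 in chronic EAE (-3.99 ± 0.32). Nkain1 passed as higher at score 4 (1.21 ± 0.46, adjusted p = 0.0435) and Nkain3 in chronic EAE (2.86 ± 0.83, adjusted p = 0.00579). Of the 2 other beta-type genes, Atp1b4 and Atp4b, 1 was tested and passed at no stage.

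Control populations differed in some of these genes, while Atp1b2 did not pass. Nkain4 (-1.02 ± 0.29) was lower in hindbrain GLASTpos than in GLASTneg cells, and Fxyd1 (0.81 ± 0.29) and Fxyd7 (2.69 ± 0.52) were higher. The median of all genes in this pair was -0.11 and 14.7% of all genes passed, against which these values are to be read. Gate and S number cannot be told apart in them. In EAE none of the FXYD and Nkain genes passed in hindbrain GLASTneg cells. Of all genes 0.6%, 0.69% and 0.0514% passed there at score 1, score 4 and in chronic EAE. In hindbrain GLASTpos cells Fxyd5 passed at score 4 and Fxyd6 and Nkain2 (2.37 ± 0.65) in chronic EAE, beside 2.76% and 2.5% of all genes. Fxyd5 and Fxyd6 were near 0 in those controls, at 0 to 2.28 and 0 to 1.63 CPM, so no fold is given, and the chronic libraries held 0 to 29.0 CPM of Fxyd6.

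Genes of sodium-coupled transport, potassium channels and calcium pumps moved in the spinal cord as a mixed group. Of 18 sodium-coupled transporters, all tested, 8 passed as lower and 1 as higher at score 1, 10 and 2 at score 4, and 9 and 0 in chronic EAE, with medians of -0.93, -1.41 and -0.90 against 0 over all genes. Of all genes 10.3%, 23% and 21.1% passed in these comparisons, in either direction. The largest changes at score 4 were those of the GABA transporter Slc6a11 (-5.11 ± 0.43), the bicarbonate cotransporter Slc4a4 (-5.01 ± 0.33) and the glutamine transporter Slc38a3 (-4.60 ± 0.32). Of 5 potassium channels of astrocytes, 3 passed as lower at each stage and 1, Kcnk2, as higher in chronic EAE. At score 4 they were Kcnk1 (-4.25 ± 0.39), Kcnj16 (-3.22 ± 0.24) and Kcnj10 (-0.51 ± 0.15), the last encoding Kir4.1, the main potassium channel of astrocytes. Of 7 calcium pumps, 2, 4 and 2 passed as lower at the 3 stages, led at score 4 by Atp2b2 (-3.59 ± 0.31), beside the same shares of all genes. In hindbrain GLASTneg cells 1 of the 18 transporters passed, Slc5a3 at score 4 (1.09 ± 0.24), beside 0.6%, 0.69% and 0.0514% of all genes at the 3 stages. In hindbrain GLASTpos cells Kcnj10 was lower at score 1 (-0.68 ± 0.15) and in chronic EAE (-0.58 ± 0.17), and Slc6a11 (-1.61 ± 0.38) and Slc13a3 (-0.90 ± 0.23) were lower at score 4. The taurine transporter Slc6a6 (2.86 ± 0.58) and Atp2b3 (1.75 ± 0.39) were higher there in chronic EAE. Of all genes 1.52%, 2.76% and 2.5% passed in these cells at the 3 stages. Slc1a2 stands both in the transporter list and among the astrocyte markers. Slc1a3, which encodes GLAST, averaged 1373 CPM in hindbrain GLASTneg, 7168 CPM in hindbrain GLASTpos and 179 CPM in spinal cord controls. The 2 hindbrain values stood in the order of the gates. Spinal cord cells, of the same gate as hindbrain GLASTneg cells, lay below them (log2 fold change -2.94 ± 0.28). Region and S number cannot be told apart in that pair.

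The genes whose group means were most like those of each member over the 12 EAE groups were found by Pearson's r of mean log2(CPM + 1) among the 6803 genes that averaged 20 CPM or more. For Atp1b2 they were Slc4a4 (r = 0.991), Chchd10 (0.990), Gabrg1 (0.989), Slc1a2 (0.988) and Gja1 (0.988). For Atp1b1 they were Pygo1 (0.966), Slc32a1 (0.959), Rbfox2 (0.957), Shank1 (0.954) and Unc80 (0.952). For Atp1b3 they were Cers2 (0.988), Cpox (0.985), App (0.984), Slco3a1 (0.977) and Lrrc8b (0.975). These are descriptions over 12 means of the same libraries, in which region and stage are shared by all genes, and they carry no test.

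In the naive FVB/N set the labels could not be taken at their word. The libraries labelled HB GLASTneg held 117 to 175 CPM of Hoxc8 and 64.5 to 77.3 CPM of Hoxa7, genes of the caudal axis, whereas the other 12 isolated libraries held at most 1.07 and 9.05 CPM. Lhx2, a gene of the forebrain, averaged 220 CPM in libraries labelled FB GLASTneg and 340 CPM in those labelled HB GLASTpos, but 9.481 CPM in those labelled FB GLASTpos. Slc1a3 averaged 10163 CPM in libraries labelled SC GLASTneg and 1939 CPM in those labelled FB GLASTpos. These 4 genes were chosen after values had been seen. The values of the libraries matched those under other names in the study's supplementary table for 12 of the 15: those labelled FB GLASTpos are there HB GLASTneg, those labelled HB GLASTneg are SC GLASTneg, those labelled HB GLASTpos are FB GLASTpos and those labelled SC GLASTneg are HB GLASTpos. Both names are given for each group, and the direction of any difference between regions or GLAST gates depends on which is right.

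By label, with the name in the supplementary table in brackets, Atp1b2 stood at 10169, 9439 and 8928 CPM in HB GLASTneg (SC GLASTneg) and 7314, 6770 and 8157 CPM in FB GLASTpos (HB GLASTneg). It stood at 3422, 5759 and 6441 CPM in SC GLASTneg (HB GLASTpos), 4099, 5162 and 4940 CPM in FB GLASTneg (the same) and 4152, 3189 and 3718 CPM in HB GLASTpos (FB GLASTpos). The first of these groups lay above all others and the second above the remaining 3. Of the 10 pairs, 5 passed for Atp1b2, given here by label. HB GLASTneg was higher than FB GLASTneg (1.01 ± 0.17, edgeR adjusted p = 4.47e-05; 2.9% of all genes passed). HB GLASTpos was lower than HB GLASTneg (-1.37 ± 0.18, adjusted p = 2.20e-08; 5.08%) and lower than FB GLASTpos (-1.01 ± 0.17, adjusted p = 4.17e-05; 3.86%). SC GLASTneg was lower than HB GLASTneg (-0.87 ± 0.17, adjusted p = 2.30e-04; 8.36%). FB GLASTpos was higher than FB GLASTneg (0.65 ± 0.17, adjusted p = 0.0321; 1.46%), a call that did not stand without 5 of the 6 libraries in turn (values from 0.57 to 0.71).
With the supplementary names, the same libraries put Atp1b2 highest in spinal cord GLASTneg, next in hindbrain GLASTneg, and lower in hindbrain GLASTpos and both forebrain groups.

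**Figure D5:**
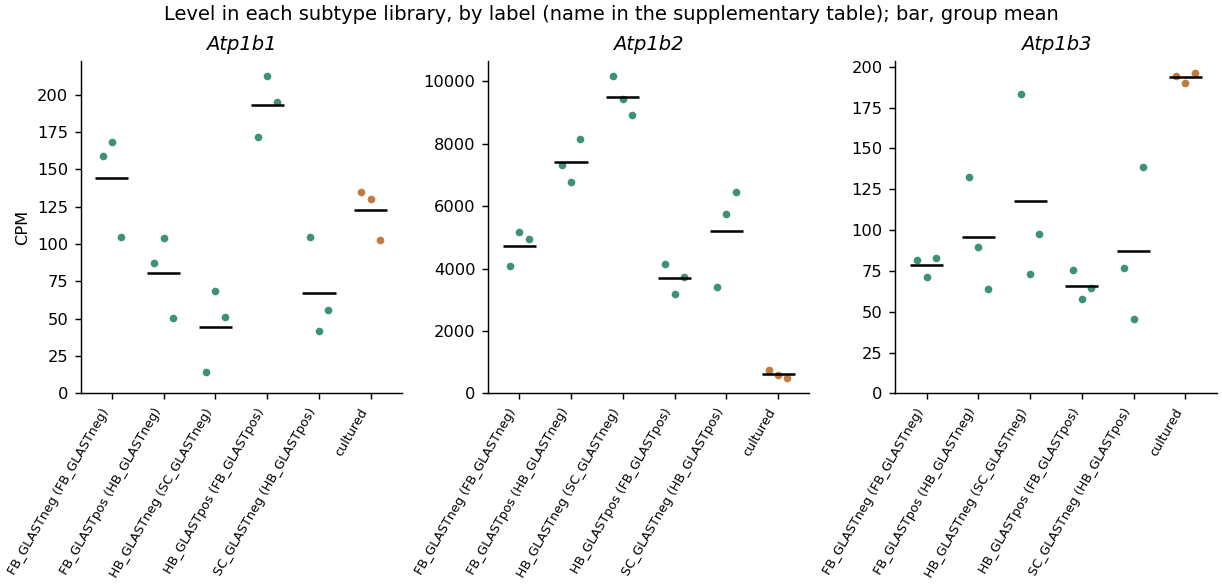
Level of Atp1b1, Atp1b2 and Atp1b3 in each of the 18 subtype libraries, in CPM from 0, by label with the supplementary name in brackets; points are libraries and bars group means. Atp1b2 lies at 3189 CPM or more in each isolated library and at 508 to 756 CPM in the cultured ones. Cultured levels were scaled with all 18 libraries and isolated levels with the 15 isolated ones only.

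Atp1b1 was highest in the libraries labelled HB GLASTpos (FB GLASTpos), at 171, 212 and 195 CPM, and in those labelled FB GLASTneg, at 159, 168 and 105 CPM. It was at 87.1, 104 and 50.2 CPM in FB GLASTpos (HB GLASTneg), 105, 41.6 and 55.8 CPM in SC GLASTneg (HB GLASTpos) and 14.3, 68.6 and 51.3 CPM in HB GLASTneg (SC GLASTneg). The order of the groups was thus nearly the opposite of that for Atp1b2. By label, HB GLASTpos exceeded HB GLASTneg (2.22 ± 0.39, adjusted p = 2.95e-05) and FB GLASTpos (1.26 ± 0.33, adjusted p = 0.0143), and SC GLASTneg lay below HB GLASTpos (-1.54 ± 0.34, adjusted p = 0.0011; 7.1% of all genes passed) and FB GLASTneg (-1.13 ± 0.35, adjusted p = 0.0311; 6.65%). HB GLASTneg lay below FB GLASTneg (-1.81 ± 0.40, adjusted p = 0.0019). Without 1 library, the second was lost without FB GLASTpos replicate 3 (0.99) or HB GLASTpos replicate 2 (1.17) or 3 (1.24), the fourth without FB GLASTneg replicate 1 (-1.04) or 2 (-1.01) or SC GLASTneg replicate 2 (-0.85) or 3 (-1.01), and the fifth without HB GLASTneg replicate 1 (-1.25). In the pair of HB GLASTpos and FB GLASTneg, both of forebrain by the supplementary names, no member passed and 0.0401% of all genes did.

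Atp1b3 passed in none of the 10 pairs, with 42 reads in its lowest library. Its levels ran from 57.9 to 75.5 CPM in libraries labelled HB GLASTpos (FB GLASTpos) up to 72.9 to 183 CPM in those labelled HB GLASTneg (SC GLASTneg), all neighbours overlapping. The largest difference, HB GLASTpos against HB GLASTneg, was -0.89 ± 0.36 (adjusted p = 0.187). No member passed between HB GLASTneg and FB GLASTpos (1.44% of all genes) or between SC GLASTneg and FB GLASTpos (5.26%). The oligodendrocyte marker sum in the libraries labelled HB GLASTneg (SC GLASTneg) was 10777 to 15303 CPM, against 1354 to 6420 CPM in the other isolated libraries. The mean log2 ratio of Atp1b2 to Atp1b1 was 8.01 ± 1.28 (n = 3) in these libraries, 6.59 ± 0.68 in FB GLASTpos (HB GLASTneg), 6.33 ± 1.14 in SC GLASTneg (HB GLASTpos), 5.06 ± 0.45 in FB GLASTneg and 4.25 ± 0.35 in HB GLASTpos (FB GLASTpos). With 3 libraries against 3 an exact permutation test cannot go below p = 0.1, and none was run.

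Cultured neonatal astrocytes held little Atp1b2 and more Atp1b3 than isolated cells. CPM of cultured libraries, marker sums included, were scaled with all 18 libraries, and those of isolated libraries with the 15 isolated ones only. The fold changes came from 1 fit of all 18. Atp1b2 stood at 756, 587 and 508 CPM, below all 15 isolated libraries, a 9.55-fold difference (-3.26 ± 0.19, adjusted p = 1.44e-19). Atp1b3 stood at 195, 190 and 196 CPM, above all isolated libraries, a 2.16-fold difference (1.11 ± 0.21, adjusted p = 2.67e-05). The highest isolated library held 183 CPM of Atp1b3. Atp1b1 stood at 135, 130 and 103 CPM and did not pass (0.41 ± 0.23, adjusted p = 0.153). In this comparison 44% of all genes passed and the median of all genes was 0.41, so the Atp1b1 value is close to that shift and the Atp1b3 value lies above it. The ratio of Atp1b2 to Atp1b1 was 2.32 ± 0.16 on the log2 scale, lower than in each isolated group. Nkain4 was lower by 3.68 on the log2 scale (log2 fold change -3.68 ± 0.25). The cultured cells differed from the isolated ones in strain, age, sorting and RNA extraction as well, and were grown from cerebrum, so the effects of culture and of these cannot be told apart. Their astrocyte marker sum was 4083 to 4609 CPM, against 19899 to 25120 CPM in isolated libraries, and their myeloid marker sum 400 to 3252 CPM.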

How the data were processed

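The authors deposited read counts per gene for 66 EAE and 18 subtype libraries. Per the labels and the study's methods, QuantSeq 3′ libraries were read as single 50-base reads, trimmed, aligned to GRCm38 with HISAT 0.1.5, handled with SAMtools and counted with HTSeq 0.6.1p1; the strand setting is not given in the sources used here. Counts were used as deposited. Genes that reached 10 counts in total were fitted with edgeR 4.0.16 (R 4.3.3, TMM scaling, quasi-likelihood test, robust), all EAE groups in 1 fit and the 15 isolated subtype libraries in another, with the Benjamini-Hochberg method over all genes. Standard errors were taken from the fold change and its F statistic. The ratio of Atp1b2 to Atp1b1 was compared with two-sided exact permutation tests, adjusted over 9 stage and 3 control pairs. Intervals of counting error were not needed, and depth limited Atp1b1 most in the EAE libraries. Coding sequences were aligned with MAFFT 7.526 on GENCODE M21.

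The 3 genes were named everywhere, with the other beta, FXYD and Nkain genes, Slc1a3, up to 3 genes per transporter, potassium channel and calcium pump list with the largest change among those that passed, and the 5 genes most like each member. The members and lists were chosen with earlier results of these data known. Alternatives were other scalings, filters, dispersions, DESeq2 1.42.0, limma 3.58.1, the replicate block, the bracket number as a random block, the S number, group names and the omission of each library. Some listed genes are not reported here. Scripts were tested on simulated data.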

Additional observations from a re-analysis of the deposited data

Results flagged for a closer look

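In 3 of the 36 sets of 4 to 10 libraries tested (3 genes in 12 groups), 1 library stood apart by Dixon's criterion, which chance alone meets in about 1 of 20. Spinal cord score 1 replicate 2 was the highest of 5 for Atp1b2, its gap to the next library taking 0.812 of the range. Spinal cord control replicate 3 was the highest of 5 for Atp1b3 (0.728 of the range), and hindbrain GLASTneg score 1 replicate 5 the highest of 6 for Atp1b3 (0.698). The marker sums of these libraries stand beside their values in the report, and their part was not tested.

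The change with EAE differed between spinal cord and hindbrain GLASTneg cells, by an interaction test, for Atp1b2 at score 4 (log2 difference -4.41) and in chronic EAE (-3.73) and for Atp1b1 at score 4 (-2.18). The Atp1b1 call was lost in 15 of 22 omissions of a single library and with the S number as a covariate. Neither Atp1b2 call was lost in any omission.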

How the results depend on the processing

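Of 1923 values under an alternative, 1796 kept direction and side of the threshold or changed sign with neither value passing (67 of the 75 sign changes), 92 lost a pass, 27 gained one and 8 reversed, for 108 results of which 28 passed. The cause was not tested for any of them. The replicate block changed no call (replicate block values of Atp1b2 in spinal cord -4.24 at score 4 and -3.90 in chronic EAE); libraries with the same replicate number in the title, which is not the bracket number, did not deviate together (mean r -0.0020, other numbers 0.00049). Without a filter, Atp1b1 passed for hindbrain GLASTpos score 4 (-1.08), for control GLASTpos against GLASTneg (1.02), for control spinal cord against GLASTpos (-1.11) and for the chronic GLASTpos interaction (1.32), and Atp1b2 for the score 1 spinal cord interaction (-1.03). With filterByExpr the control spinal cord pair passed for Atp1b1 (-1.15), and with the first bracket number of the titles as a random block in limma-voom both control pairs did (1.32 and -1.31). With the S number as a covariate Atp1b1 lost chronic GLASTpos (1.33), spinal cord score 1 (-1.28) and the score 4 interaction (-1.61). Fitted by population alone, chronic GLASTpos Atp1b1 (1.57), spinal cord score 1 Atp1b1 (-1.61) and Atp1b2 (-0.88) were lost, and in spinal cord libraries with S numbers of 57 or more Atp1b1 lost score 1 (-1.41), score 4 (-1.87) and chronic against score 4 (1.90). Dispersions by estimateDisp, chosen after seeing the data, lost Atp1b1 in chronic GLASTpos (1.55) and in SC against FB GLASTneg (-1.11) and Atp1b2 at spinal cord score 1 (-0.92). In the subtype set DESeq2 lost Atp1b1 for SC against FB GLASTneg (-1.04) and HB against FB GLASTpos (1.23), the fit with the cultured libraries lost Atp1b2 for FB GLASTpos against FB GLASTneg (0.64), and Atp1b2 for SC GLASTneg against HB GLASTpos passed without a filter (0.51), with filterByExpr (0.54), DESeq2 (0.57) and RLE scaling (0.57). Taken against the sum of the 3 genes, the log2 share of Atp1b2 passed for chronic GLASTpos (-0.10), spinal cord score 4 (-1.22) and control spinal cord against GLASTneg (-0.070), and reversed for control spinal cord against GLASTpos (-0.051).

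By the supplementary names, Atp1b2 reversed for FB GLASTpos against FB GLASTneg (-0.36), HB GLASTpos against FB GLASTpos (0.50), SC GLASTneg against FB GLASTpos (1.37) and SC GLASTneg against HB GLASTneg (0.36), and Atp1b1 for HB GLASTpos against FB GLASTneg (-1.13), FB GLASTpos (-1.54) and HB GLASTneg (-0.28). Atp1b1 lost HB against FB GLASTneg (-0.86) and SC GLASTneg against HB GLASTpos (-0.68), and Atp1b2 HB GLASTpos against HB GLASTneg (-0.51). Atp1b2 gained SC (1.01) against FB GLASTneg, HB GLASTneg against FB GLASTpos (1.01) and SC against HB GLASTpos (0.87), and Atp1b1 HB GLASTneg (-1.26) and SC GLASTneg (-2.22) against FB GLASTpos.

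Leaving out 1 library changed calls within these ranges. Atp1b1 ran from -2.17 to -1.13 at spinal cord score 1, 1.14 to 1.78 in chronic GLASTpos, -2.80 to -1.69 for the score 4 interaction, 0.80 to 1.64 and -1.62 to -0.90 for control GLASTpos against GLASTneg and spinal cord against GLASTpos, -2.41 to -1.25 for HB and -1.56 to -0.85 for SC against FB GLASTneg, and 0.99 to 1.48 for HB against FB GLASTpos. Atp1b2 ran from -1.68 to -0.68 at spinal cord score 1, -1.82 to -0.83 for its interaction, 0.57 to 0.71 for FB GLASTpos against GLASTneg, and -0.68 to -0.27 and 0.33 to 0.76 for SC GLASTneg against FB and HB GLASTpos. The ratio ran from -1.80 to -1.18 for control GLASTpos against GLASTneg, 1.15 to 1.61 for spinal cord against GLASTpos, 0.90 to 1.33 for GLASTpos score 4, -2.37 to -1.76 for spinal cord score 4 and -3.91 to -3.28 for chronic spinal cord.

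Over all genes DESeq2 called 269 against 140 genes with edgeR in hindbrain GLASTneg at score 1, 254 against 161 at score 4 and 93 against 12 in chronic EAE, 622 against 354 in GLASTpos at score 1, 261 against 99 for the score 1 spinal cord interaction, 17, 16 and 57 against 2, 0 and 6 for the GLASTpos interactions, and 4918 against 7534 for cultured cells. With S numbers of 57 or more, 1791 genes passed at spinal cord score 4 against 5367, and 61 against 1720 for chronic against score 4. Without a filter 429, 383 and 183 genes passed in GLASTneg and 767, 1016 and 1043 in GLASTpos at score 1, score 4 and chronic, against 140, 161 and 12 and 354, 644 and 583, with 194 against 33 for GLASTneg chronic against score 4, 380 against 99 for the score 1 spinal cord interaction, 80, 86 and 241 against 2, 0 and 6 for the GLASTpos interactions, and 34 against 6 for HB GLASTpos against FB GLASTneg (3 with the cultured libraries). Fitted by population alone, 497, 463 and 127 passed in GLASTneg and 120, 210 and 305 in GLASTpos, and chronic against score 4 gave 207, 894 and 1032 in GLASTneg, GLASTpos and spinal cord against 33, 1530 and 1720. With estimateDisp these were 5, 921 and 988, with 19 and 278 in chronic GLASTneg and GLASTpos, 43 for the score 1 spinal cord interaction and 1 for the score 4 GLASTpos interaction. With the S number as a covariate 969 passed for spinal cord chronic against score 4 and 1835 against 3433 for the GLASTpos and GLASTneg controls, and filterByExpr gave 170 for the score 1 spinal cord and 18 for the chronic GLASTpos interaction.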
